A study of Mus musculus with 14 samples.

Results

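The NRF2 pathway was followed through 9 genes in adipose tissue of mice: the transcription factor NRF2 (gene Nfe2l2), its repressor Keap1, and 7 target genes, Gclc, Gclm, Slc7a11, Txnrd1, Srxn1, Nqo1 and Hmox1. They were taken by gene name from the deposited table of transcript levels, where each has 1 row, so they are 9 of the 54955 genes left after rows of the same name were summed. The study measured RNA in 14 libraries of C57BL/6 adipose tissue taken at postnatal week 21, of which 7 carry the label wild type (WT, replicates 3 to 9) and 7 the label knockout for Dectin-1 (ko-dectin1, here KO, replicates 1 to 7). Dectin-1, encoded by Clec7a, is the receptor through which myeloid cells recognise β-glucans of fungal cell walls. No treatment and no allele besides the Dectin-1 knockout is named in the labels. They give neither the fat depot, nor the sex, nor whether the deletion covers all cells. The design text speaks of 7 mice in each group, and p-values measure the spread between these libraries.

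NRF2 is a basic leucine zipper factor that pairs with small MAF proteins and binds antioxidant response elements (AREs) in front of its target genes. In unstressed cells KEAP1, an adaptor of the CUL3 ubiquitin ligase, holds NRF2 and has it degraded, while oxidants and electrophiles modify cysteines of KEAP1 and let NRF2 accumulate. NRF2 is therefore regulated largely at the protein level, which RNA does not show. Its targets make glutathione, reduce thioredoxin and peroxiredoxins, supply NADPH, reduce quinones and break down heme. In fat the pathway is known for its part in adipocyte differentiation and in the redox state of obese tissue.

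The stretches in front of the genes are shown first, because NRF2 acts through AREs. The group itself was taken by gene name and not by these letters. RefSeq promoter windows (assembly GRCm38.p6, 250 bases before to 50 bases after the start site) matched 7 of the 9 genes by symbol, in 9 windows since Txnrd1 has 3. Hmox1 and Gclc had no match. Printed are the windows of Nfe2l2 itself (chr2:75704614-75704913, minus strand), Gclm (chr3:122245307-122245606, plus strand), Srxn1 (chr2:152105274-152105573, plus strand), Slc7a11 (chr3:50443564-50443863, minus strand) and the second window of Txnrd1 (chr10:82858956-82859255, plus strand), the 5 that held a match. Each runs 5′ to 3′ along its gene, with motif matches in capitals.
Nfe2l2: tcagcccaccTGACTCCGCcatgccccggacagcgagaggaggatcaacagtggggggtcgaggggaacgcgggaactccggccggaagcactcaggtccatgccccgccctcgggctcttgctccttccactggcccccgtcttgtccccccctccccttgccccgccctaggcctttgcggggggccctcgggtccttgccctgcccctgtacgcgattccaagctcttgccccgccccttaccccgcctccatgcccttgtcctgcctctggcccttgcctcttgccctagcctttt
Gclm: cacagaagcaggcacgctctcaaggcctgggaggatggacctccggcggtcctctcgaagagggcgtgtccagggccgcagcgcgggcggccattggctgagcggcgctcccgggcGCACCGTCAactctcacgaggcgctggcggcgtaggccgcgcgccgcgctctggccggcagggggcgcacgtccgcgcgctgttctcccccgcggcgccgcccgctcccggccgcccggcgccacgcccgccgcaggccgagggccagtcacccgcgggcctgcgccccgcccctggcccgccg
Srxn1: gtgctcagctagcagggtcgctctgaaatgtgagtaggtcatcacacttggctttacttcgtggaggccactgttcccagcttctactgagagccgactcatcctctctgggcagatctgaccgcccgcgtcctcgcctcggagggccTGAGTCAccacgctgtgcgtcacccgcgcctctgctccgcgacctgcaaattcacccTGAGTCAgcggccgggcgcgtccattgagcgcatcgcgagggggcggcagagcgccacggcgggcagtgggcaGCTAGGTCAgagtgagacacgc
Slc7a11: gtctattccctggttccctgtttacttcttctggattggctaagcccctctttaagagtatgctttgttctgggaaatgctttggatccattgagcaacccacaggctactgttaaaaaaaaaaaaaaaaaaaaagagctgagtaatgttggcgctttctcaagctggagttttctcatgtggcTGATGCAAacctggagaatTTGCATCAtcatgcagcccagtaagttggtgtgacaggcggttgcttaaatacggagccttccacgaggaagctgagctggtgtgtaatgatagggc
Txnrd1: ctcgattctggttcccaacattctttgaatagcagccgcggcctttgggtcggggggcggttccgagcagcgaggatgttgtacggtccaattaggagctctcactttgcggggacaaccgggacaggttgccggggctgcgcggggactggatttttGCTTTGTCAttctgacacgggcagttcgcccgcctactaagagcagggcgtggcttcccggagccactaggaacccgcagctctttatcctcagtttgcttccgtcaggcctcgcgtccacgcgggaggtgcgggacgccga

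The letters searched on both strands were TGACNNNGC for the ARE core, TGANTCA for the AP-1 site, and TGATGNAA for the composite element of C/EBP and ATF factors. The ARE core was matched in the windows of Nfe2l2 (TGACTCCGC), Gclm (GCACCGTCA, minus strand), Srxn1 (GCTAGGTCA, minus strand) and Txnrd1 (GCTTTGTCA, minus strand). Among all 32851 RefSeq windows of this length, 12.4% held the ARE core. Srxn1 also held 2 AP-1 matches, TGAGTCA, which begin at -102 and -45 from the start site and do not overlap its match to TGACNNNGC. The match at -45 runs on as TGAGTCAGC, with G where the searched ARE core has its first C. The search did not cover such letters, and whether they act as an ARE was not tested. Of all windows 7.81% held the AP-1 letters. Slc7a11 held the C/EBP and ATF letters as TGATGCAA and, on the minus strand, TTGCATCA, against 3.97% of all windows. The windows of Nqo1 and Keap1 held none of the 3. A match describes letters only, since no binding was measured. Letters outside these windows were not searched, so a window without a match does not show that its gene lacks an ARE.

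Values are in TPM, a share of all transcripts scaled for gene length so that levels of different genes can be set side by side. Clec7a, the gene named in the genotype label, ranged from 4.02 to 10.46 TPM with a median of 6.33 in the KO libraries and from 4.10 to 18.86 with a median of 12.49 in WT. The groups overlapped in that gene (limma adjusted p = 0.59), and gene-level values do not show which exons were read, so KO and WT stand for labels throughout. Adipocyte genes were present in each library, with the adipokine gene Adipoq at 683 TPM or more. In 3 libraries, KO replicate 7 and WT replicates 4 and 7, the 8 B-cell markers summed to 2.51 to 7.85 TPM, against 474 to 1939 TPM in the other 11. Several results that lean on these 3 are also given without them. Adipocyte markers were below 0 (KO minus WT) in 10 of 10 genes, with sums of 14705 to 65227 TPM in KO and 35109 to 67616 in WT. Macrophage markers were below 0 in 9 of 10, with sums of 558 to 1766 TPM in KO and 399 to 2314 in WT. Of the other lists, 7 of 8 progenitor and fibroblast markers, 6 of 6 skeletal muscle markers and 5 of 5 red blood cell markers were below 0. Skeletal muscle sums varied widely, from 23.03 to 6412 TPM in KO and from 34.15 to 20267 in WT, highest in WT replicate 4. Mesothelium markers were too low to be tested. They summed to 27.13 TPM in KO replicate 7, 3.11 in WT replicate 4, 2.98 in WT replicate 7 and 0.73 to 2.01 in the other 11. The B-cell and T-cell lists had 0 of 8 each below 0, endothelium 1 of 6, and neutrophil and monocyte 2 of 6. Among all genes tested, 45.4% were below 0. No marker of the adipocyte and macrophage lists was at 0 in all libraries. The difference in mean marker level between groups gave an exact permutation p of 0.094 for adipocytes and 0.17 for macrophages.

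The 9 genes differed widely in level. Nfe2l2 had the highest mean over the 14 libraries, 48 TPM, followed by Hmox1 (42.3), Keap1 (33.5) and Txnrd1 (28.6). Gclm followed at 23.7 TPM, Srxn1 at 12.3, Gclc at 11.1, Nqo1 at 4.59 and Slc7a11 at 1.62. The order among the upper genes was loose: Nfe2l2 was above Hmox1 in 9 of 14 libraries, Hmox1 above Keap1 in 10, and Keap1 above Txnrd1 in 11. Srxn1 and Gclc could not be ordered, since Srxn1 was the higher in 7 of 14. Gclm was above Srxn1 in all 14 libraries, and the steps from Txnrd1 to Gclm, from Gclc to Nqo1 and from Nqo1 to Slc7a11 held in 13 of 14 each. Among all 14719 genes tested, those that reached 1 TPM in 7 libraries, Nfe2l2 lay at the 83.9th percentile of level and Slc7a11 at the 7.05th.

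**Figure D1:**
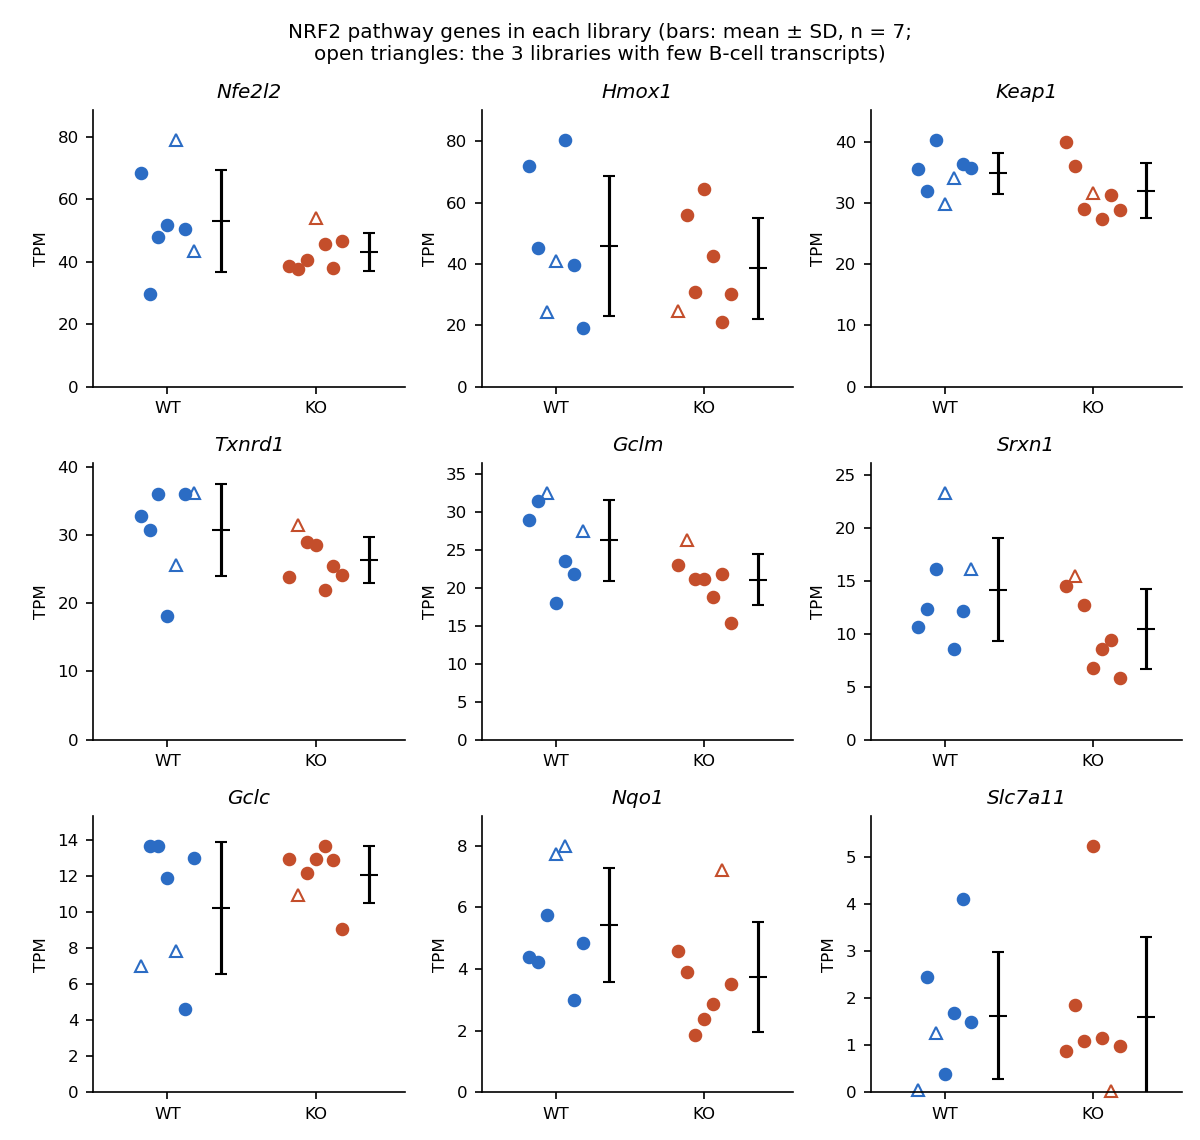
TPM (y axis) of each NRF2 pathway gene in the 7 WT and 7 KO libraries (x axis), in order of mean level. Points are libraries, open triangles are the 3 libraries with few B-cell transcripts, and bars are mean ± SD (n = 7); the bar of Slc7a11 in KO runs below 0 and is cut there. In each panel the groups overlap, and the triangles are the highest points for Nqo1.

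The pair at the top of the pathway did not differ between groups beyond its spread. Nfe2l2 ranged from 37.67 to 54.09 TPM in the KO libraries with a median of 40.57, and from 29.67 to 79.00 in WT with a median of 50.41. The KO values formed a narrow band inside the WT range: both the lowest library (WT replicate 6) and the highest (WT replicate 7) were WT. The means were 43.05 ± 6.10 among KO and 52.96 ± 16.3 among WT libraries (SD, n = 7). On the log2(TPM + 1) scale, which understates changes of genes of low level, KO minus WT was -0.25 ± 0.18 (SE, limma adjusted p = 0.61), with a 95% interval from -0.63 to 0.14. It became -0.37 without WT replicate 6 and -0.14 without WT replicate 7. Keap1 ranged from 27.35 to 40.05 TPM in KO with a median of 31.30 and from 29.89 to 40.32 in WT with a median of 35.49. Its highest library in KO nearly reached its highest in WT, and 3 KO libraries lay under all of WT. The log2 difference was -0.12 ± 0.11 (SE, limma adjusted p = 0.65), with a 95% interval from -0.35 to 0.10. Keap1 was among the steadiest genes of the tissue: its SD within groups was 0.16 on the log2 scale, lower than in all but 2.9% of genes tested. In bulk tissue, fewer cells of a type and less RNA per cell cannot be told apart, here and in all that follows.

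Glutathione synthesis was represented by both subunits of its rate-limiting enzyme and by the importer of its precursor. Gclm, the modifier subunit of glutamate-cysteine ligase, ranged from 15.39 to 26.36 TPM in KO with a median of 21.16 and from 18.04 to 32.53 in WT with a median of 27.51. All 7 KO libraries lay under the WT median, and 4 WT libraries lay above all of KO, but the groups overlapped. The means were 21.1 ± 3.41 among KO and 26.3 ± 5.31 among WT libraries (SD, n = 7), a log2 difference of -0.29 ± 0.15 (SE) with a 95% interval from -0.61 to 0.02, limma adjusted p = 0.46 and unadjusted p = 0.065. Gclc, the catalytic subunit, ranged from 9.03 to 13.67 TPM in KO with a median of 12.89 and from 4.60 to 13.64 in WT with a median of 11.86. It was the only one of the 9 with a value above 0: 5 KO libraries lay above the WT median, and the 3 lowest values, in WT replicates 6, 4 and 7, were all WT. Its log2 difference was 0.29 ± 0.21 (SE, limma adjusted p = 0.61), with a 95% interval from -0.16 to 0.74. Without WT replicate 6 it was 0.14, and with library weights, which count libraries less the further they lie from the fit, it was 0.02. In the 11 libraries with B-cell transcripts it was 0.18. Slc7a11, the light chain of the cystine-glutamate exchanger xCT, was scarce and erratic, from 0.03 to 5.23 TPM in KO with a median of 1.1 and from 0.05 to 4.11 in WT with a median of 1.49. KO replicate 2 and WT replicate 3 stood highest, and KO replicate 7 and WT replicate 7, each with few B-cell transcripts, were lowest. The log2 difference was -0.05 ± 0.39 (SE, limma adjusted p = 0.96) with a 95% interval from -0.87 to 0.78, and its sign changed when single libraries were left out.

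In the thioredoxin branch, Txnrd1, the cytosolic thioredoxin reductase, ranged from 22.03 to 31.56 TPM in KO with a median of 25.56 and from 18.17 to 36.26 in WT with a median of 32.88. All 7 KO libraries lay under the WT median and 4 WT libraries lay above all of KO, while WT replicate 6 was the lowest of all 14. The log2 difference was -0.19 ± 0.15 (SE, limma adjusted p = 0.63), with a 95% interval from -0.52 to 0.13, and -0.31 without WT replicate 6. In the fit with library weights, Txnrd1 fell by 0.38 (limma adjusted p = 0.046), where 823 genes, 5.59% of those tested, were called. Srxn1, sulfiredoxin, which restores over-oxidised peroxiredoxins, ranged from 5.81 to 15.46 TPM in KO with a median of 9.42 and from 8.52 to 23.28 in WT with a median of 12.30. Its KO libraries fell into 4 below the WT median and 3 above it, and WT replicate 7 was far above the rest. The log2 difference was -0.41 ± 0.24 (SE, limma adjusted p = 0.52), with a 95% interval from -0.93 to 0.10. In the 11 libraries with B-cell transcripts it was -0.32.

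Nqo1, the quinone reductase that is the textbook readout of NRF2, was at 1.86 to 7.22 TPM in KO with a median of 3.51 and at 3.01 to 8 in WT with a median of 4.85. Of the KO libraries 6 lay under the WT median and 3 under all of WT, and the exception, KO replicate 7, stood at 7.22. The means were 3.76 ± 1.78 among KO and 5.42 ± 1.86 among WT libraries (SD, n = 7), so that KO stood at 0.693 of WT. The log2 difference was -0.46 ± 0.24 (SE) with a 95% interval from -0.98 to 0.06, limma adjusted p = 0.48 and unadjusted p = 0.078. The highest 3 values, 7.22 to 8 TPM, belonged to the 3 libraries with few B-cell transcripts, against 1.86 to 5.75 in the other 11. In those 11 the log2 difference of Nqo1 was -0.40 (limma adjusted p = 0.54), and without KO replicate 7 alone it was -0.60 (limma adjusted p = 0.18). Hmox1, heme oxygenase 1, which frees iron and biliverdin from heme, ranged from 21.14 to 64.47 TPM in KO with a median of 30.97 and from 18.97 to 80.48 in WT with a median of 41.06. Low and high libraries occurred in both groups, and its spread within groups exceeded that of 81.0% of genes tested. The log2 difference was -0.19 ± 0.33 (SE, limma adjusted p = 0.81), with a 95% interval from -0.90 to 0.51, and it turned to 0.23 with the macrophage marker level in the fit. Leaving out 1 library gave values from -0.04 (without WT replicate 3) to -0.37 (without WT replicate 6).

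None of the 9 genes was called in the comparison of KO with WT by limma (0 of 9 at an adjusted p under 0.05, and 0 of 9 at an unadjusted p under 0.05). The background was small: 3 of 14719 genes, 0.0204%, were called, all lower in KO. At the unadjusted threshold, 6.74% of all genes were lower in KO and 4.67% were higher. The difference was below 0 for 8 of the 9 genes, against 45.4% of all genes, and the median was -0.19, against 0.04 for all genes. These 9 differences come from the same 14 libraries and do not count as independent. The genes were chosen with earlier results of these data known, so these counts do not test the list. All 9 overlapped between groups, and among all genes 0.319% did not. In the 11 libraries with B-cell transcripts, again 8 of 9 were below 0, with a median of -0.23 and 0 called. Among all genes 51.6% were below 0 there, with a median of -0.01. The median was -0.37 without WT replicate 6 and -0.38 with library weights, where 5 of 9 were lower at an unadjusted p under 0.05 and 1, Txnrd1, was called. With those weights 16.2% of all genes were lower at that threshold, 53.5% were below 0 and their median was -0.03. The median of the 9 was -0.08 with the macrophage marker level as a covariate. There 6 of 9 were below 0, against 38.6% of all genes, whose median was 0.14. With the adipocyte marker level as a covariate, 8 of 9 were below 0, with a median of -0.14 and 0 called. Among all genes 53.4% were below 0 there, with a median of -0.02. In that fit Nqo1 moved from -0.46 to -0.06 and Srxn1 from -0.41 to -0.02. Hmox1 moved the other way from -0.19 to -0.42, and Slc7a11 from -0.05 to -0.34. With the macrophage marker level as a covariate, Gclc was called at 0.53 (limma adjusted p = 0.033). In that fit 22.9% of all genes were called, 2717 higher and 655 lower. The part of macrophage content in the group difference was not tested.

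**Figure D2:**
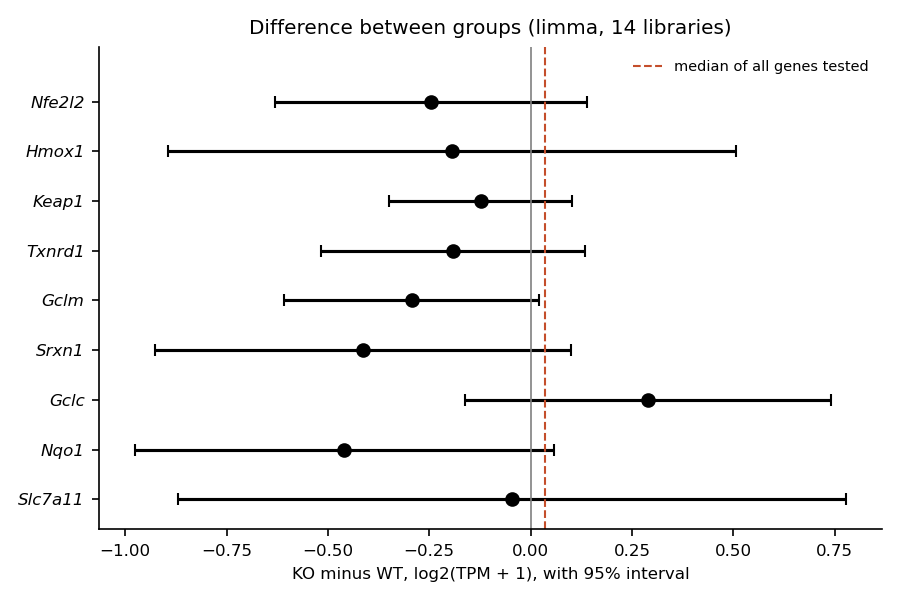
Difference of KO from WT in log2(TPM + 1) units (x axis) for each NRF2 pathway gene (y axis). Points are limma estimates over 14 libraries, bars are 95% intervals and the dashed line is the median of all genes tested, 0.04. Each interval includes 0, and Gclc alone lies to the right of it.

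Partner genes were compared as ratios within each library, which removes what both partners share. The ratio of Gclm to Gclc, modifier to catalytic subunit, was 0.75 ± 0.37 among KO and 1.33 ± 0.52 among WT libraries on the log2 scale (SD, n = 7 each). It ranged from 0.24 to 1.26 in KO and from 0.64 to 2.06 in WT, so the groups overlapped. The difference of -0.58 had an exact permutation p of 0.040 (2-sided), and 0.24 after Benjamini-Hochberg adjustment over the 6 ratios, so it did not pass. In the 11 libraries with B-cell transcripts it was -0.44 (exact permutation adjusted p = 0.57). Nfe2l2 to Keap1, activator to repressor, averaged 0.41 ± 0.23 among KO and 0.54 ± 0.42 among WT libraries (exact permutation p = 0.51, adjusted 0.86). Srxn1 to Prdx1, the enzyme to a peroxiredoxin it repairs, differed by -0.26 (exact permutation p = 0.17, adjusted 0.52). Slc7a11 to its heavy chain Slc3a2, Hmox1 to the constitutive Hmox2, and Txnrd1 to the mitochondrial Txnrd2 differed by 0.18, 0.12 and -0.04 (exact permutation adjusted p = 0.86, 0.86 and 0.87). Those 3 differences were small against the spread of single libraries, and each changed sign when 1 library was left out.

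The remainder of the pathway was read from 98 other genes in 6 lists by role, 96 of which were tested; the regulators Nfe2l3 and Nfe2 were too low. By limma 0 of 96 were called, 27 had an unadjusted p under 0.05 and were lower in KO, against 6.74% of all genes, and 1 was higher, against 4.67%. Of the 96, 71 were below 0 and the median was -0.22, against 45.4% and 0.04 for all genes. The lists were chosen with earlier results of these data known, and their genes share the same libraries. Their counts therefore describe the lists and do not test them. With the adipocyte marker level as a covariate, 57 of 96 were below 0, the median was -0.05 and 10 were lower at that threshold. Among all genes of that fit, 53.4% were below 0, the median was -0.02 and 4.78% were lower. In the 11 libraries with B-cell transcripts the median was -0.22, with 72 below 0, 24 lower at that threshold and 0 called. There 51.6% of all genes were below 0, with a median of -0.01 and 7% lower at that threshold. The count of 0 called did not hold in 2 other fits in which many genes were called. With library weights 15 of 96 were called lower and 0 higher, with 80 below 0 and a median of -0.31. There 5.59% of all genes were called, 575 lower and 248 higher, with 53.5% below 0 and a median of -0.03. With the macrophage covariate 17 were called lower and 9 higher. There 22.9% of all genes were called, 655 lower and 2717 higher, with a median of 0.14.

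The regulators were centred near 0, with 10 of 22 below 0 and a median of 0.06. Library weights called 2 of them lower, against 5.59% of all genes called in either direction. The macrophage covariate called 6 higher and 1 lower, against 22.9% of all genes called. Sqstm1, the autophagy receptor p62, which binds KEAP1 and is itself an NRF2 target, was one of the few genes whose groups did not overlap, at 137 to 197 TPM in KO and 221 to 312 in WT. Its log2 difference was -0.66 ± 0.12 (SE, limma adjusted p = 0.10), so it too missed the threshold. Sesn2, a stress-induced sestrin, had -0.48 ± 0.19, the small MAF partner Mafg -0.50 ± 0.30 and Syvn1, a ubiquitin ligase of NRF2, 0.31 ± 0.17 (SE, limma adjusted p from 0.37 to 0.54).

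Of the glutathione genes 17 of 20 were below 0, with a median of -0.32 and 5 at an unadjusted p under 0.05; with the adipocyte covariate the median was -0.10. Gss, glutathione synthetase, stood at 12.5 ± 1.86 TPM among KO and 16.8 ± 2.73 among WT libraries (SD, n = 7; limma adjusted p = 0.27). Gsr, glutathione reductase, stood at 23.7 ± 3.98 against 29.9 ± 4.59 TPM, Mgst1, a microsomal glutathione transferase, at 789 ± 392 against 1214 ± 329, and Chac1, which degrades glutathione, at 1.79 ± 1.06 against 4.97 ± 3.81 (limma adjusted p from 0.40 to 0.41). Of the 15 thioredoxin genes 13 were below 0, with a median of -0.25 and 6 at an unadjusted p under 0.05. With the adipocyte covariate 10 of 15 were below 0 and the median was -0.015. Msrb1, a selenium-dependent methionine sulfoxide reductase, did not overlap between groups, at 76.2 to 132 TPM in KO and 134 to 255 in WT, with a log2 difference of -0.77 ± 0.17 (SE, limma adjusted p = 0.17). The peroxiredoxin genes Prdx4 and Prdx5 had -0.45 ± 0.13 and -0.43 ± 0.18 (SE, limma adjusted p = 0.24 and 0.41).

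Heme and iron genes were mixed, with 10 of 15 below 0, a median of -0.32 and, at an unadjusted p under 0.05, 6 lower and 1 higher. With the adipocyte covariate 11 of 15 were below 0, with a median of -0.18 and, at that threshold, 4 lower and 1 higher. Among all genes of that fit 53.4% were below 0, and 4.78% were lower at that threshold. Red blood cell markers were below 0 in 5 of 5, with sums of 1542 to 4434 TPM in KO and 1458 to 8227 in WT, where WT replicate 6 was the highest; their part in the result was not tested. Blvrb, a biliverdin reductase, averaged 79.7 ± 10.8 TPM among KO and 108.6 ± 16.8 among WT libraries, and Hmox2 at 53.7 ± 7.33 against 66.7 ± 5.88 (SD, n = 7 each; limma adjusted p = 0.22 and 0.30). Alas1, the first enzyme of heme synthesis, had a log2 difference of -0.77 ± 0.27 and the ferritin heavy chain Fth1 -0.44 ± 0.16 (SE, limma adjusted p = 0.33 and 0.34). The iron importer Tfrc, which falls outside the naming rule and is named because it was the 1 gene higher at an unadjusted p under 0.05, had 0.42 ± 0.16 (SE, limma adjusted p = 0.35). In the NADPH list 4 of 6 were below 0 with a median of -0.09, which became 0.04 under quantile normalization and 0.18, with 2 of 6 below 0, under the adipocyte covariate. Idh1, G6pdx and Taldo1, which feed NADPH production, had -0.51 ± 0.23, -0.47 ± 0.25 and -0.16 ± 0.20, and malic enzyme Me1 0.30 ± 0.47 (SE, limma adjusted p from 0.42 to 0.79). Detoxification genes were below 0 in 18 of 20 cases, with a median of -0.34 and 8 at an unadjusted p under 0.05. Por, the electron donor of cytochromes P450, stood at 190 ± 98.6 against 325 ± 65.2 TPM, and the carbonyl reductase Cbr3 at 5.10 ± 0.77 against 8.54 ± 2.15 (SD, n = 7 each; limma adjusted p = 0.28 and 0.22). Its relative Cbr1 had -0.43 ± 0.15 and Osgin1, an oxidative stress-induced growth inhibitor, -0.74 ± 0.28 (SE, limma adjusted p = 0.31 and 0.36). Under the adipocyte covariate 11 of the 20 detoxification genes were below 0, with a median of -0.07. Library weights called 5 of the 20 lower, against 5.59% of all genes called in either direction. The macrophage covariate called 4 lower and 2 higher, against 22.9% of all genes called. Library weights also called lower 2 glutathione, 3 thioredoxin, 3 heme and iron and 1 NADPH gene. The macrophage covariate called 4 glutathione genes lower, and 4 lower and 1 higher in each of the thioredoxin and heme and iron lists. The part of adipocyte content in the differences of these lists was not tested.

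**Figure D3:**
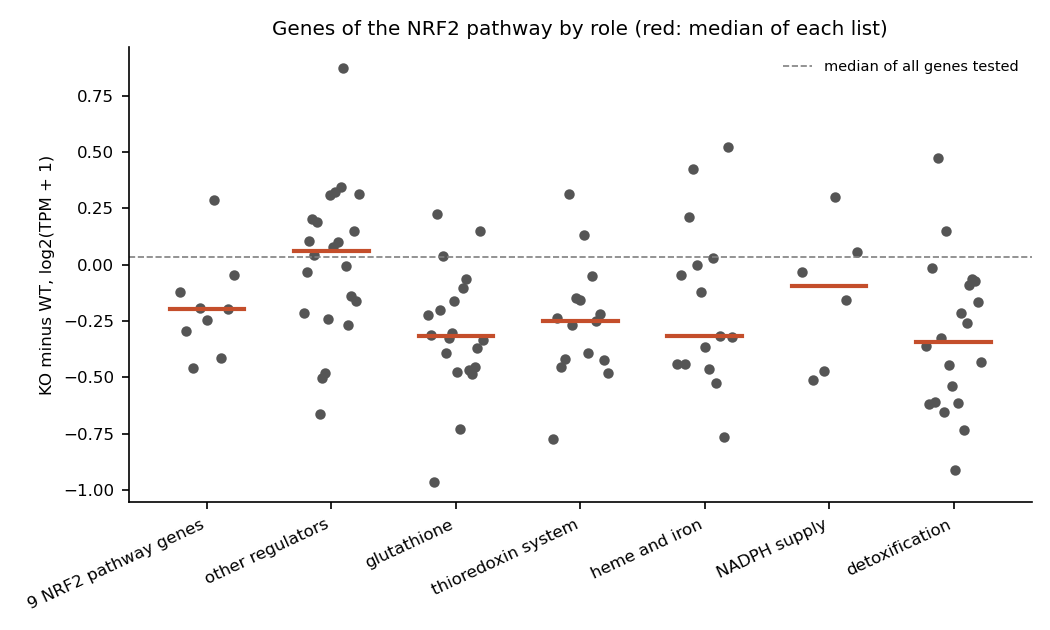
Difference of KO from WT in log2(TPM + 1) units (y axis) for the 9 NRF2 pathway genes and for the 6 lists of other pathway genes by role (x axis). Points are genes, red lines are medians and the dashed line is the median of all genes tested. The other regulators are centred at 0.06 and the detoxification list at -0.34, and none of the genes shown was called in this fit.

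Which cells' markers the 9 genes followed was examined across libraries, after subtracting each group's mean and within the 11 libraries with B-cell transcripts, since the other 3 stand apart. Each gene was set against the mean log2 level of the 10 adipocyte and of the 10 macrophage markers, with 100000 permutations within groups and adjustment over the 18 relations. Nqo1 followed the adipocyte markers (Pearson's r = 0.80, adjusted permutation p = 0.025; Spearman's rho = 0.76, adjusted 0.080), as did Srxn1 (r = 0.85, adjusted permutation p = 0.025; rho = 0.72, adjusted 0.080). Without the 2 libraries farthest from the median, r was 0.69 for Nqo1 and 0.78 for Srxn1. Over all 14 libraries it was 0.89 and 0.88. These relations passed by r and not by rho.

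Hmox1 followed the macrophage markers (r = 0.93, adjusted permutation p = 0.0050; rho = 0.93, adjusted 0.0072). Without the 2 farthest libraries r was 0.81, without WT replicate 6 it was 0.87 (adjusted permutation p = 0.018), and over all 14 libraries it was 0.84. Keap1 also followed them (r = 0.72, adjusted permutation p = 0.025; rho = 0.83, adjusted 0.032), with r at 0.62 without the 2 farthest. Gclc (r = 0.87, adjusted permutation p = 0.025; rho = 0.64, adjusted 0.080) and Txnrd1 (r = 0.83, adjusted permutation p = 0.028; rho = 0.75, adjusted 0.067) passed by r alone. WT replicate 6 had the lowest macrophage sum of the 5 WT libraries in this set. Without it r fell to 0.75 for Gclc and 0.59 for Txnrd1 (adjusted permutation p = 0.10 and 0.25), and neither passed. For Keap1 r was 0.73 without it, no lower than with it, at an adjusted permutation p of 0.091 in 10 libraries. Over all 14 libraries r was 0.71 for Keap1, 0.76 for Gclc and 0.52 for Txnrd1 (adjusted permutation p = 0.0060, 0.036 and 0.24), so the relation of Txnrd1 was lost there. For Gclc, r was 0.42 without the 2 farthest libraries, so that relation rests on them. The other 12 relations did not pass, among them both of Nfe2l2 (r = 0.12 with adipocyte and 0.65 with macrophage markers), Gclm and Slc7a11. Other cell types that vary along with these markers were not separated from them.

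**Figure D4:**
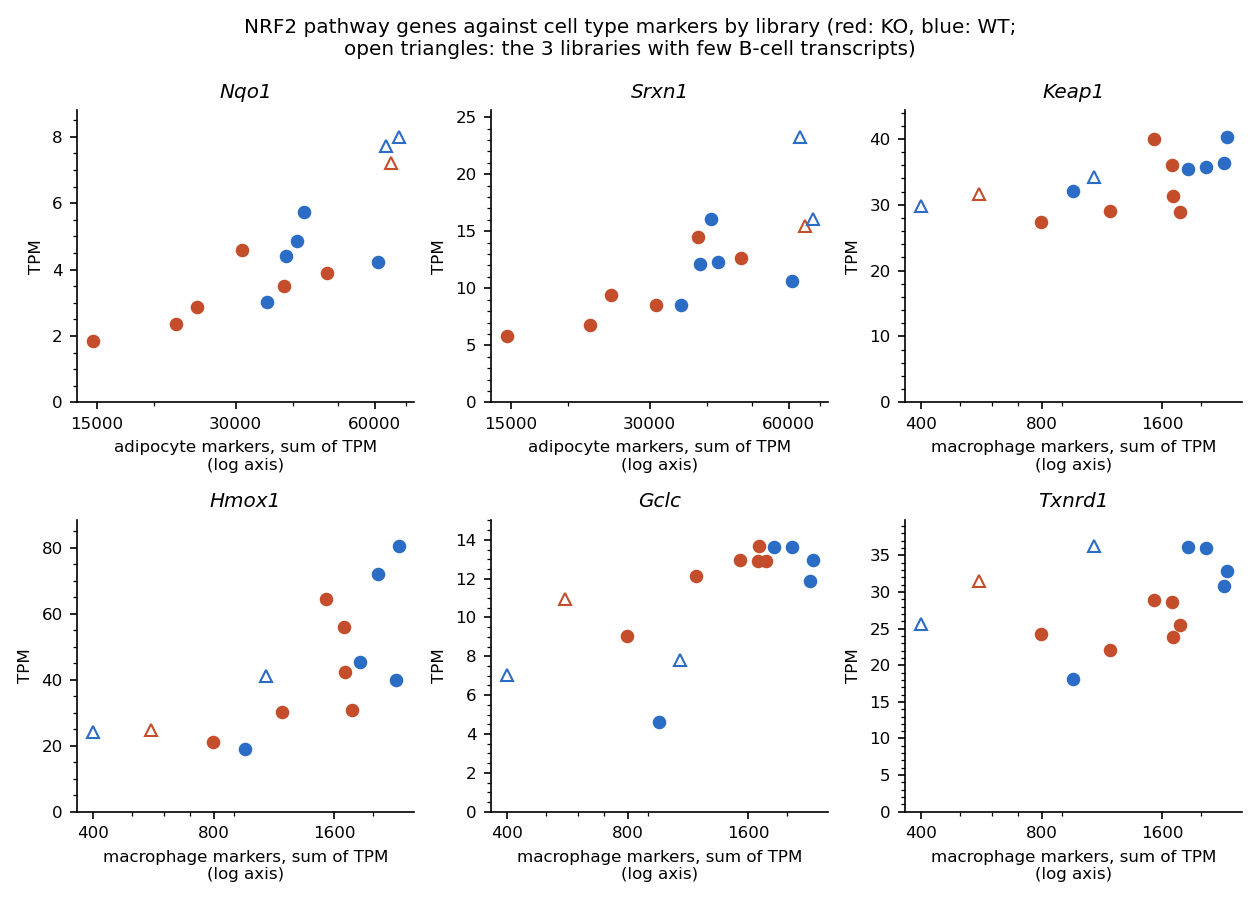
TPM of 6 NRF2 pathway genes (y axes) against the summed TPM of adipocyte or macrophage markers (x axes, log scale), 1 point for each of the 14 libraries, red for KO and blue for WT, open triangles for the 3 libraries with few B-cell transcripts. Nqo1 and Srxn1 rise along the adipocyte axis, and Hmox1 rises along the macrophage axis from about the level of WT replicate 6 (18.97 TPM) to that of WT replicate 3 (80.48 TPM).

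Among themselves the 9 genes were only partly coordinated. Over the same 11 libraries and after removal of group means, 1 of 36 pairs passed: Keap1 and Hmox1 (r = 0.84, adjusted permutation p = 0.0040; rho = 0.86, adjusted 0.026), with r at 0.82 without the 2 farthest libraries and 0.87 without WT replicate 6. Gclc and Txnrd1 had r = 0.90 (adjusted permutation p = 0.21), Hmox1 and Gclc 0.80 (adjusted 0.096), Hmox1 and Txnrd1 0.80 (adjusted 0.097), and Nqo1 and Srxn1 0.70 (adjusted 0.21). Those 4 pairs did not pass. The transcript of NRF2 itself passed with none of its 7 targets, at r from 0.24 (Slc7a11) to 0.83 (Gclc). Without the 2 farthest libraries its r fell to 0.29 with Gclc and from 0.82 to 0.24 with Txnrd1. Gclc and Gclm, whose products form 1 enzyme, had r = 0.43 (adjusted permutation p = 0.61).

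**Figure D5:**
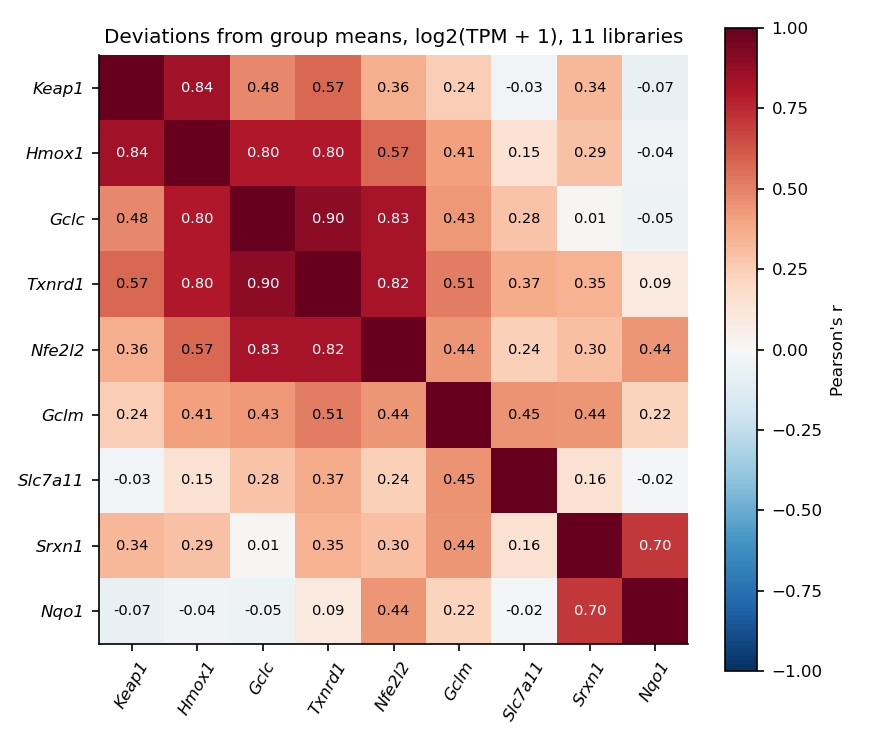
Pearson's r between NRF2 pathway genes (rows and columns) over the 11 libraries with B-cell transcripts, on log2(TPM + 1) after removal of group means; red is positive and blue negative. Gclc and Txnrd1 hold the highest value (0.90), Srxn1 and Nqo1 pair with each other at 0.70, and only Keap1 with Hmox1 (0.84) passed.

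For each gene the 2 most similar of the named genes tested were listed by the same r over these 11 libraries, as a description with no test. Nfe2l2 was most like Myo10 (r = 0.98) and Crim1 (0.98). Keap1 was most like Wipi2 (0.96), a factor of autophagosome formation, and Opa3 (0.95). Hmox1 was most like Mthfd1 (0.97), an enzyme of folate metabolism, and Top3a (0.97), a topoisomerase. Gclc was most like Fryl (0.99) and Bach1 (0.98), which encodes a repressor that competes with NRF2 for AREs. Txnrd1 was most like Dennd1a (0.98) and Pdia4 (0.97), a disulfide isomerase of the endoplasmic reticulum. Nqo1 was most like Plxdc2 (0.97) and Porcn (0.96), and Srxn1 was most like Abhd15 (0.98), a gene of adipocyte lipolysis, and Frg2f1 (0.97). Gclm (Ndufaf1, 0.90, and Reg1, 0.88) and Slc7a11 (Nckipsd, 0.93, and Gyg, 0.81) had no gene as close as 0.95. Each of these was picked as the highest in a search over the tested genes in the same 11 libraries.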

How the data were processed

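RNA was measured in 14 mouse adipose libraries. The authors deposited 1 table of 56552 rows in TPM with a length per gene, and each library column has about the same total. The submitters' processing notes name Bowtie 0.12.2 and the builds mm8 and mm9, with no role; the program behind the TPM values, the annotation and the use of strand were not given in the sources used here. TPM keeps no read count, so depth is unknown, no counting interval can be given, and errors are spreads between libraries. Since the total is fixed, more of 1 abundant transcript means less of the others.

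Rows of the same name were summed (54955 genes), and the 14719 that reached 1 TPM in 7 or more libraries entered the test. KO was compared with WT on log2(TPM + 1) by limma-trend with a robust prior (limma 3.58.1, R 4.3.3), 2-sided, with no covariate and Benjamini-Hochberg adjustment over all genes tested; a gene was called at an adjusted p under 0.05. Ratios were tested over all 3432 splits of 14 libraries, with 0.000583 the smallest p possible. On simulated data with 200 changed genes of 14719, the comparison recovered 52.7% of 2-fold and 87.9% of 4-fold changes over 5 runs each, with 2.2 and 1.2 false calls on average. Members and lists were chosen with earlier results of these data known. Named from each list were genes that passed, otherwise up to 4 with the smallest p; for likeness, the 2 genes with the highest r, without Gm or Rik models. Promoter letters came from RefSeq (GRCm38.p6), and coordinates of the deposited table were not used. Alternatives were other pseudocounts, filters and scalings, left-out libraries, library weights, marker covariates and a replicate block. Relations over 14 libraries or without WT replicate 6, and list counts under alternatives, were added after seeing the data.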

Additional observations from a re-analysis of the deposited data

Results flagged for a closer look

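Slc7a11 in KO replicate 2 lay far from the other 6 KO libraries, at 5.23 TPM against 0.03 to 1.85. Its gap to the next library took 0.65 of the range of the group, above Dixon's 95% critical value for 7 samples. On the log2(TPM + 1) scale the same library did not pass that value. In all, 48 groups of 7 were looked at, and chance flags about 1 in 20 groups.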

How the results depend on the processing

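The count of called genes, 3 (all lower in KO), was 1 without the filter on low values, 1 with rows as deposited, 17 with quantile normalization (6 lower, 11 higher), 8 with median-ratio scaling (5 lower, 3 higher), 6 without mitochondrially encoded genes (4 lower, 2 higher), 0 in the 11 libraries with B-cell transcripts, 9 with the adipocyte, 3372 with the macrophage covariate and 823 with library weights; leaving out 1 library gave 0 to 6 (6 without KO replicate 7, 1 without KO replicate 2, and 0 without any one of KO replicates 1, 5 and 6 or WT replicates 3, 4, 5, 7, 8 and 9). The count among the 9 genes, 0, became 1 with library weights (Txnrd1) and 1 with the macrophage covariate (Gclc), and stayed 0 under the other 27 alternatives. Of 260 values of single genes under alternatives, 250 kept direction and side of the threshold, 2 passed it and 8 changed sign; Slc7a11 could not be tested at 1 TPM in all 14 libraries. Hmox1 was 0.23 and Slc7a11 0.12 with the macrophage covariate, and Slc7a11 ran from -0.29 to 0.14 with 1 library left out. Its ratio to Slc3a2 was -0.0067 with quantile normalization and ran from -0.085 to 0.41 with 1 library left out, Txnrd1 to Txnrd2 from -0.23 to 0.025, and Hmox1 to Hmox2 from -0.031 to 0.26. The cause of these shifts was not tested.

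Replicate numbers 3 to 7 occur in both groups, and the labels do not say whether they pair the libraries. Deviations of same-numbered libraries correlated at 0.0918, -0.68, 0.584, -0.0831 and 0.782, and 3 of 10 libraries correlated best with their own number. So few numbers cannot settle whether libraries of the same number share a batch. With the replicate block on those 10 libraries, 0 genes were called, as without the block on the same 10. There Hmox1 was 0.18, Slc7a11 to Slc3a2 -0.0043 and Txnrd1 to Txnrd2 0.20, with and without the block.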

Other observations

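WT replicate 6 was the lowest WT library in Nfe2l2 (29.67 TPM), Hmox1 (18.97), Gclc (4.60), Gclm (18.04) and Txnrd1 (18.17), and among these it was the lowest of all 14 libraries in each but Gclm. In Srxn1 (10.64 TPM) and Nqo1 (4.22 TPM) it lay inside the range of the other WT libraries. Its adipocyte markers summed to 61115 TPM, the highest of the 11 libraries with B-cell transcripts, and its macrophage markers to 957 TPM. In the same library Sqstm1 was at 311.6 and Msrb1 at 255 TPM, the highest values of both genes. The labels name nothing that sets this library apart.

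Slc7a11 was at 0.03 TPM in KO replicate 7 and at 0.05 TPM in WT replicate 7, but at 1.26 TPM in WT replicate 4, the third library with few B-cell transcripts. Of the other 11 libraries none was under 0.38 TPM.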
